A study of Mus musculus with 18 samples.

Results

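The replication-dependent histone genes of the mouse were followed at RNA polymerase II (Pol II) and CTCF in ventricles of adult mouse hearts. They were taken as every region of the deposited table whose gene symbol is that of an H1f1 to H1f6, H2ac, H2bc, H3c or H4c gene, which gave 66 regions (union peaks) of 37 genes, out of 101256 union peaks in all and 38260 annotated to a gene. Chromatin immunoprecipitation sequencing (ChIP-seq) reads the genome positions a protein occupies. It was done with 2 libraries per genotype for Pol II, 2 for CTCF and 1 for IgG, an antibody with no target that gives the background. The genotypes were WT, *Trdn-as* KO (labelled trdn-as KO, mice in which a polyadenylation site placed in the first exon of the cardiac long non-coding RNA gene *Trdn-as* stops its transcription) and *Mettl3* KO (labelled Mettl3lox/lox:alphaMHC-MerCreMerpos, in which tamoxifen-induced Cre under a cardiomyocyte promoter removes the N6-adenosine methyltransferase METTL3, so that other heart cells keep it). Chromatin came from ventricles of 2 pooled hearts, and whether the WT mice were given tamoxifen is not stated in the sources used here. Nothing says that the libraries of a genotype came from separate animals, so the p-values measure the spread between libraries, which may be technical.

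These genes code for the linker histone H1 and the core histones H2A, H2B, H3 and H4 that package newly made DNA, and most of them lie in large clusters. Their transcription rises when cells enter S phase and is driven at histone locus bodies by the coactivator NPAT. Their mRNAs have no poly(A) tail. The 3' end is instead made by a cut just after a short stem-loop, which is bound by the stem-loop binding protein SLBP. Adult cardiomyocytes rarely divide, whereas the replication-independent histone genes, such as *H3f3a* and *H3f3b*, have polyadenylated mRNAs and are used outside S phase.

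The stem-loop was searched for within 120 nt after the stop codon in RefSeq (GRCm38.p6). Of the 63 genes listed there under the symbols of the rule, 59 held it, and the others (*H2ac22*, *H2bc21*, *H2bc22* and *H2bc23*) had no peak assigned to them. It was found in all 34 member genes listed under the same symbol, 23 to 55 nt after the stop codon with a median of 30.5. The other 3 (*H2ac25*, *H2bc27* and *H4c16*) had no RefSeq entry of that symbol. Of 11 replication-independent histone genes searched in the same way, 1 held it (*H2ax*). The sequences below run 5′ to 3′ in the direction of transcription, with the 16 bases of the stem-loop in capitals and 5 bases on each side. They are shown because every distinct form among the members is represented once.
H1f2: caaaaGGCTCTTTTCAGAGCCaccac
H2bc3: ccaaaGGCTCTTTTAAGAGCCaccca
H3c8: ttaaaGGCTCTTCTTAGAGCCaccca
H4c8: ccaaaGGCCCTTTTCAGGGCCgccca
H4c9: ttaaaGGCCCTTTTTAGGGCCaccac
H4c1: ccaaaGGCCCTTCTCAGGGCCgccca
H4c2: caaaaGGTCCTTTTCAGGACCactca
H2ax: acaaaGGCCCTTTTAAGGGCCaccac
The form of *H1f2* was shared by 18 member genes and that of *H2bc3* by 6. The stem split by family. All 25 genes of the H1, H2A, H2B and H3 families had a stem that begins GGCTC, and none of the 9 H4 genes had it, of which 7 began GGCCC and 2 began GGTCC. These positions are on chromosome 13 of GRCm38, from 23739512 in *H1f2*, 23747203 in *H2bc3*, 23535889 in *H3c8*, 23531458 in *H4c8*, 22040966 in *H4c9*, 23760800 in *H4c1* and 23757366 in *H4c2*. That of *H2ax* starts at 44335240 on chromosome 9.

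Upstream of the genes, RefSeq promoter windows (250 nt before to 50 nt after the gene start) were available for 31 of the 37 member genes and were searched on both strands. The TATA box TATAAA was in 61.3% of the 31 member windows and in 13.6% of all 32851 windows. The CCAAT box CCAAT was in 80.6% of them, against 37.4% of all, and in every H1, H2A, H2B and H3 window but only 3 of the 9 H4 windows. The octamer ATTTGCAT, the site of the POU factor OCT1, was in 8 member windows, 4 of the 6 H2A and 4 of the 7 H2B, and in 1.74% of all windows. The H1 box AAACACA was in 2 of the 3 H1 windows, and in 12.9% of member and 7.18% of all windows. The CTCF core CNAGGNGGC was in 1 member window (H1 family) against 8.38% of all, and the E2F site TTTCCCGC in 1 (H4 family) against 1.07%. The windows of H2A and H2B genes that start head to head overlap, so a site between them can be counted under both families. These are letter matches, not sites shown to be bound. The 200 nt before the gene start are given below, on the coding strand and with these motifs in capitals on either strand, for the gene of each family with the most Pol II per length. They lie on chromosome 13 of GRCm38, at 23738607-23738806 for *H1f2* and 22042998-22043197 for *H2bc11* on the plus strand, and at 23683960-23684159 for *H2ac6*, 23562386-23562585 for *H3c6* and 23698459-23698658 for *H4c3* on the minus strand.
H1f2: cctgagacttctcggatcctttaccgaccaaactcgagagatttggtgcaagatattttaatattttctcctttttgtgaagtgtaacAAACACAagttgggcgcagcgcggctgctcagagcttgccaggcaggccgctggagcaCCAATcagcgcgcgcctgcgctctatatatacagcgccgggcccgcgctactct
H2ac6: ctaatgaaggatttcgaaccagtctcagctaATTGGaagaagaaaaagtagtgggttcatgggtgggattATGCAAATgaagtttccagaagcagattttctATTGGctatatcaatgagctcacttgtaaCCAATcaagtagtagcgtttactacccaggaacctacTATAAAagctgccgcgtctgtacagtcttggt
H2bc11: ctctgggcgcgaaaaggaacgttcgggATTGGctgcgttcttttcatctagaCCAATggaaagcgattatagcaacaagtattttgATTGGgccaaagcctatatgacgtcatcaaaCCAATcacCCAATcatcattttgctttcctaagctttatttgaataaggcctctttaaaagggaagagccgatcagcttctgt
H3c6: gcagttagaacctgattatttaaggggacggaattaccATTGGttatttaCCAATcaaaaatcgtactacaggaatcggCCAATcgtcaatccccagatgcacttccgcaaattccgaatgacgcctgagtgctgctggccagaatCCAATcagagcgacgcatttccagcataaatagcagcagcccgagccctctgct
H4c3: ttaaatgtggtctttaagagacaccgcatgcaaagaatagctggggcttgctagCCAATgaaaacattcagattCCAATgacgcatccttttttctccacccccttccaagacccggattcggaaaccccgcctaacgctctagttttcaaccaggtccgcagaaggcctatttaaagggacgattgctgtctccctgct
*H2ac6* held the octamer, a TATA box and 3 CCAAT boxes within 200 nt, and *H2bc11* held 5 CCAAT boxes.

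Of the 63 genes that RefSeq lists under these symbols on the chromosomes of GRCm38, 34 had at least 1 union peak and 29 had none. All 10 genes of the chromosome 3 cluster were without one, as were *H1f4*, *H1f5* and *H1f6*. The authors kept uniquely mapped reads of 72 nt only, so the uniqueness of 72-nt stretches in the GRCm38 chromosomes was counted. In the 300 nt before the gene start it was 100% at the median of the 34 genes with an assigned peak and 99.7% at the lowest. In the coding sequence it was 31.7% at the median, from 4.75% in *H2ac12* to 100% in *H1f1*. By family the median was 82.0% for H1, 27.2% for H2A, 26.8% for H2B, 34.1% for H3 and 35.3% for H4. Of the 29 genes with no assigned peak, the median was 100% upstream and 25.5% in the coding sequence, and *H2ac23*, *H2ac24* and *H2bc23* had no unique stretch in either. Values over coding sequence are therefore uncertain for most core histone genes.

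The 66 member peaks comprised 62 on chromosome 13, 3 on chromosome 11 (*H2bc27* and *H2ac25*) and 1 on chromosome 6 (*H4c16*). Those on chromosome 13 fell into 2 stretches of the GRCm39 build used by the authors, chr13:21893847-22228899 with 19 peaks of 10 genes and chr13:23710373-23948079 with 43 peaks of 24 genes. The peak of each gene with the most Pol II is called its main peak. Of the 37 main peaks, 31 covered the annotated gene start, reaching 504 nt upstream and 247 nt downstream of it at the median, and 6 of these spanned the whole gene. Main peaks had a median length of 962 nt, and the annotated genes one of 614 nt. The 6 main peaks away from the start were those of *H1f3*, *H2bc4*, *H2bc8*, *H2bc13*, *H2ac12* and *H3c3*.

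In 23 genes there were 2 or more peaks, and at the median the main one held 93.4% of the Pol II signal of the gene. In 13 of them a second, weaker peak began 72 to 397 nt (median 133) after the end of the peak at the start, and in 10 of the 13 this second peak reached the annotated gene end. Its Pol II value was 8.14% of that at the start at the median, from 1.17% in *H4c1* to 42.0% in *H2ac10*. In *H4c12*, for example, one peak ran from 504 nt before to 158 nt after the start and the next from 277 to 495 nt after it, with mean Pol II values of 151.7 and 13.2. The part of non-unique coding sequence in this split was not tested.

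**Figure D1:**
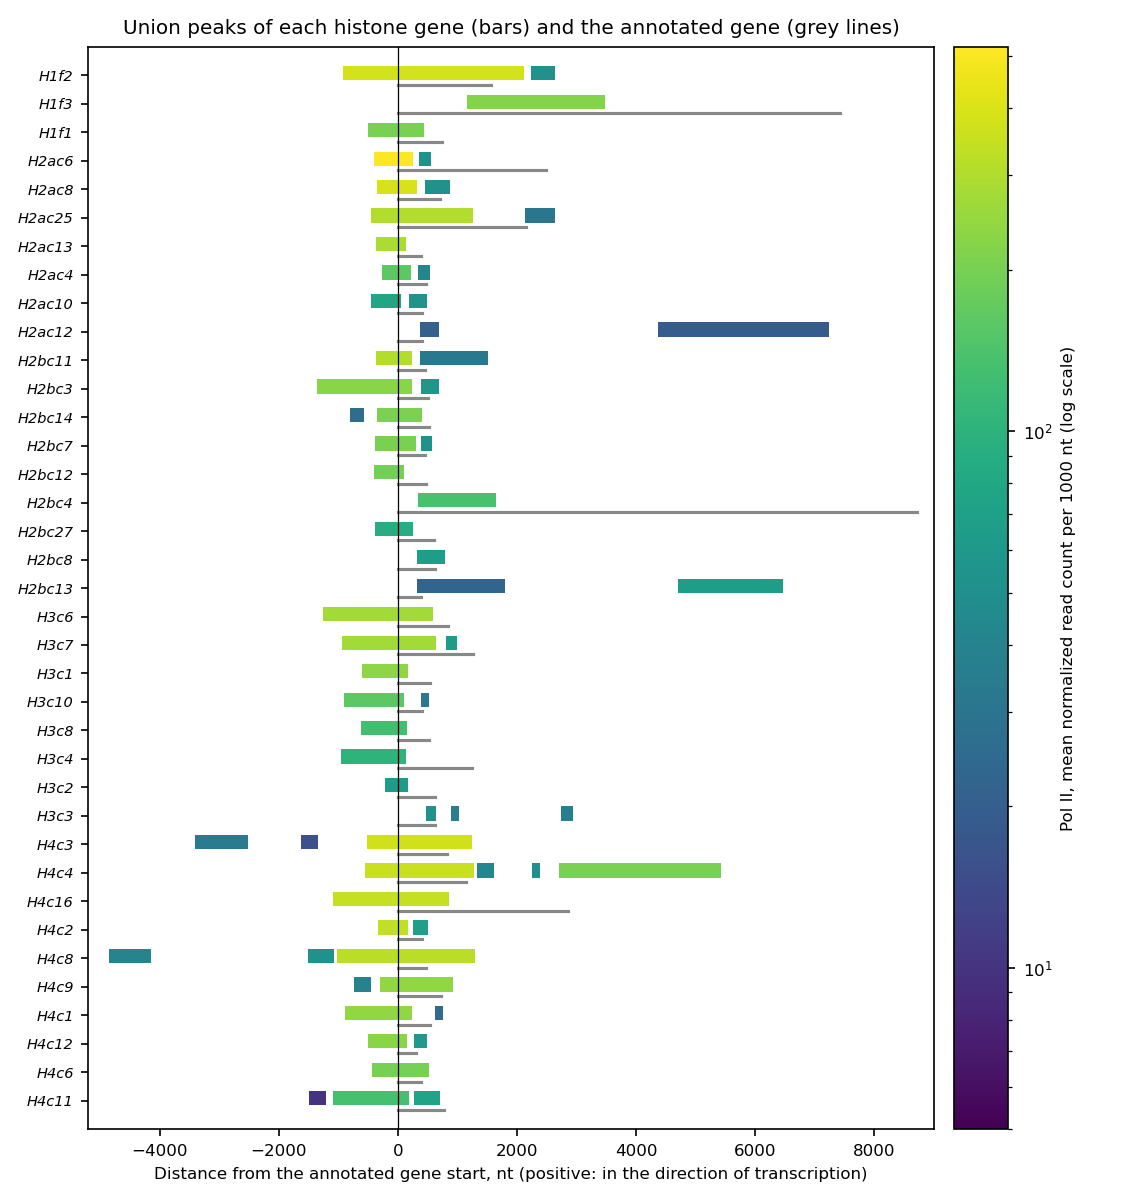
Union peaks of the 37 histone genes, drawn as bars along the distance from the annotated gene start (nt, positive in the direction of transcription) and coloured by mean Pol II normalized read count per 1000 nt, with the annotated gene as a grey line. Most genes have a strong peak over the start and, in 13 genes, a weaker one 72 to 397 nt behind it.

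Assignment to a gene followed the authors' annotation and was not always that of the nearest histone start. RefSeq lists 11 head-to-head pairs of an H2A and an H2B gene with starts 164 to 281 nt apart (median 192), which share 1 promoter region. Both genes had an assigned peak in 4 of these pairs, only 1 gene in 2 and neither gene in 5. Pol II over such a promoter cannot be divided between the partners. *H2ac6* and *H2bc4*, with starts 240 nt apart, and *H2ac8* and *H2bc8*, 180 nt apart, are examples in which the peak over the shared promoter was given to the H2A gene and a separate peak further into the H2B gene to its partner. The *H4c4* peak centred 4065 nt after the gene start, 2715 nt long with a mean Pol II value of 550.7, is another case. In GRCm38 the stem-loop of *H2bc6*, a gene with no peak of its own, lies 3963 nt after the RefSeq start of *H4c4*.

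The values are normalized read counts made by the authors. In them 1 read was worth 0.945 to 2.04 in the Pol II libraries, 0.284 to 0.458 in the CTCF libraries and 2.55 to 6.56 in the IgG libraries. Pol II libraries held 1991582 to 4950316 reads in peaks. *Trdn-as* KO library 2 stood apart, with 18.6% of its uniquely mapped reads in peaks against 35.6% to 42.5% in the other 5. At the *Trdn-as* promoter the Pol II value was 140 and 100 in *Trdn-as* KO, against 491 to 595 in the other 4 libraries, which goes with the labels. The 6 peaks of the Y chromosome summed to 0 in both *Trdn-as* KO Pol II libraries and to 223 to 326 in the others, so sex and this genotype cannot be told apart. The 8 cardiomyocyte markers had a median of 287 per 1000 nt of Pol II (91.4 to 339), and 4 of 6 leukocyte markers had a peak, with a median of 72.6 (63.9 to 87.2). In such bulk tissue, fewer cells of a type and less Pol II per cell cannot be told apart.

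Pol II per length was higher at the histone peaks than at the annotated peak of median level. The median over all 66 member peaks was 75.1 per 1000 nt of peak, and over all 38260 annotated peaks 38.6. Annotated peaks were called in the Pol II and CTCF libraries together, so this median and the marks below are not those of Pol II peaks alone. Of the 66, 53 lay above that median of annotated peaks, 22 above 90% of them and 13 above 95%. Over the 37 main peaks, which were chosen for having the most Pol II of their gene, the median was 219, and 36, 21 and 13 of them passed the same marks. Scaled by library to uniquely mapped reads, main peaks held 18.1 times the reads of IgG at the median (3.00 to 63.0), and the other member peaks 4.65 times (0.736 to 18.7, with 2 peaks at 0 in all IgG libraries). In 29 of the 37 this ratio was above 5 in each genotype, with *H2ac10* and *H3c4* not counted because the *Trdn-as* KO IgG library had no read there. Many of these ratios rest on few IgG reads, with 1 IgG library per genotype. At *H2ac6*, with the ratio of 63.0, the IgG values were 31 (WT), 7 (*Trdn-as* KO) and 9 (*Mettl3* KO). All 66 peaks together took 0.224% to 0.243% of the Pol II signal of a library, and 0.0778% to 0.0871% of the CTCF signal.

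Among the linker histones, *H1f2* (H1.2) had the largest Pol II value of all member peaks. Over a peak of 3027 nt (chr13:23921875-23924901, GRCm39) it was 1110 and 1037 (WT), 1194 and 1044 (*Trdn-as* KO), and 1222 and 1298 (*Mettl3* KO). Per length it stood at 380 per 1000 nt, higher than *H1f3* with 219 and *H1f1* with 200. *H1f3* gave 517 and 519 (WT), 500 and 440 (*Trdn-as* KO), and 528 and 546 (*Mettl3* KO). Both *Mettl3* KO libraries of *H1f2* lay above the other 4, and both *Trdn-as* KO libraries of *H1f3* below them.

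H2A genes spread the most. *H2ac6* had the most Pol II per length of any member, 505 per 1000 nt, and only 3 of the 38260 annotated peaks had more. Its main peak (chr13:23867684-23868337) held 320 and 297 (WT), 316 and 275 (*Trdn-as* KO), and 376 and 397 (*Mettl3* KO). *H2ac8* followed with 391 per 1000 nt, with 251 and 223 (WT), 241 and 214 (*Trdn-as* KO), and 304 and 315 (*Mettl3* KO). In both genes the *Mettl3* KO libraries were the highest and the WT and *Trdn-as* KO libraries overlapped. Both peaks also covered the start of the head-to-head partner, *H2bc4* and *H2bc8*, so these levels cannot be given to the H2A gene alone. At the other end, the main peak of *H2ac12* had 19.1 per 1000 nt, and that peak lies 4376 to 7233 nt after the gene start. The peak over the start of *H2ac12* was assigned to its head-to-head partner *H2bc12*, at 193 per 1000 nt, so this low level comes with the assignment.

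Among H2B genes *H2bc11* (302 per 1000 nt) and *H2bc3* (227) had the most. *H2bc11* held 200 and 168 (WT), 180 and 157 (*Trdn-as* KO), and 192 and 216 (*Mettl3* KO), so that WT overlapped each of the others and *Trdn-as* KO lay below *Mettl3* KO. *H2bc3* had a mean of 362.3 over the 6 libraries, with its lowest value, 248, in *Trdn-as* KO library 2. The lowest peak of the family was the one of *H2bc13* just behind its gene, with 22.3 per 1000 nt.

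The 8 H3 genes had a median of 144 per 1000 nt over their main peaks, with *H3c6* at 273 and *H3c7* at 273. *H3c6* held 501 and 499 (WT), 516 and 403 (*Trdn-as* KO), and 541 and 565 (*Mettl3* KO). *H3c3* was the weakest gene of all 37 by its whole signal. It had 3 short peaks, and its main one was at 14 and 7 (WT), 8 and 8 (*Trdn-as* KO), and 7 and 8 (*Mettl3* KO), which is the only main peak under the test's filter for Pol II.

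H4, coded by the most genes here, had a median of 281 per 1000 nt over 10 main peaks, from 132 in *H4c11* to 372 in *H4c3*. *H4c3* held 637 and 558 (WT), 625 and 664 (*Trdn-as* KO), and 713 and 719 (*Mettl3* KO). *H4c4*, with 350 per 1000 nt, held 625 and 574, 659 and 599, and 661 and 712. *H4c8* had the largest value of a single main peak in the family, not scaled to length, with 730 and 684 (WT), 775 and 633 (*Trdn-as* KO), and 819 and 800 (*Mettl3* KO). *H4c16*, the gene on chromosome 6, reached 343 per 1000 nt, within the range of the clustered genes.

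**Figure D2:**
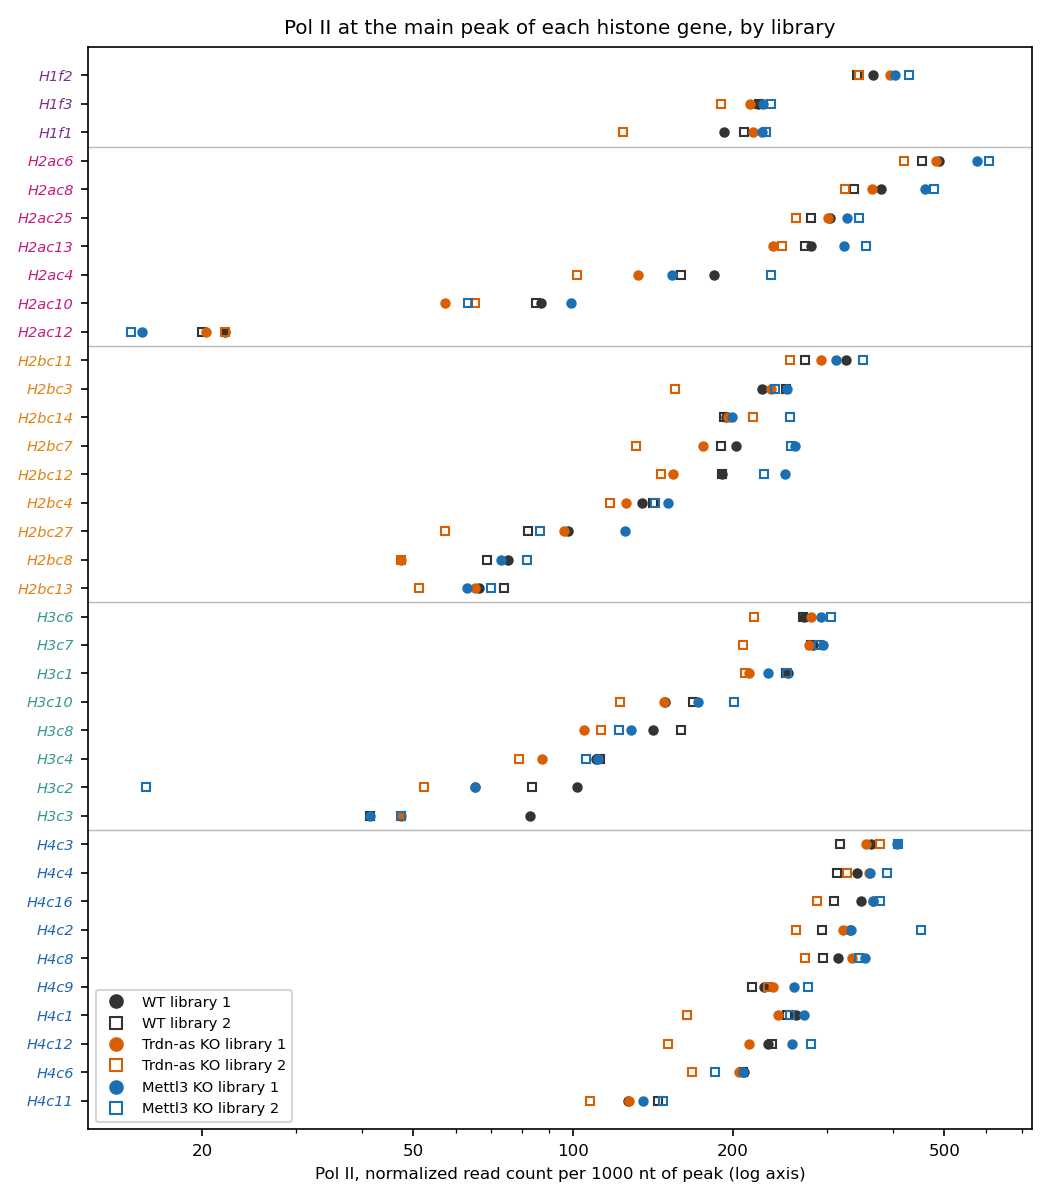
Pol II normalized read count per 1000 nt (log axis) at the main peak of each of the 37 histone genes, with 1 point per library (filled circles library 1, open squares library 2; WT black, *Trdn-as* KO orange, *Mettl3* KO blue) and genes grouped by family. Levels run from 19.1 per 1000 nt at *H2ac12*, whose start lies in the peak given to *H2bc12*, to 505 at *H2ac6*, whose peak also covers the start of *H2bc4*. This range is wider than that between the 6 libraries of any gene.

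CTCF, the architectural factor that sets chromatin loop boundaries, was near the level of other annotated peaks. The median over all 66 member peaks was 26.7 per 1000 nt and over all annotated peaks, called for Pol II and CTCF together, 28.6. Of the 66, 29 lay above that median, 7 above 90% of annotated peaks and 1 above 95%. Over the 37 main peaks, chosen by Pol II, the median was 33.4, and 22, 6 and 0 of them passed the same marks. Against IgG the main peaks held 4.24 times the reads at the median, scaled in the same way, with 1.27 at the lowest. The largest CTCF values were at peaks away from the gene start. That of *H2ac12* held 242 and 209 (WT), 241 and 264 (*Trdn-as* KO), and 228 and 232 (*Mettl3* KO), and had the largest ratio to IgG of any main peak. The peak of *H2bc13* 4708 to 6466 nt after its start held 152 and 145, 154 and 162, and 146 and 154. A peak centred 2960 nt before the start of *H4c3* had the most CTCF per length of all members (106 per 1000 nt) with 34.7 per 1000 nt of Pol II.

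CTCF at gene starts was highest per length in *H2ac25* (88.4 per 1000 nt), *H4c11* (87.0), *H4c3* (77.2) and *H3c6* (73.9). *H2ac25* held 164 and 139 (WT), 151 and 162 (*Trdn-as* KO), and 143 and 144 (*Mettl3* KO), and *H3c6* 143 and 131, 133 and 131, and 143 and 137. In H1 the most was at *H1f2*, with 34.1 per 1000 nt. The *Trdn-as* KO values lay above those of *Mettl3* KO at *H2ac25* and below them at *H3c6*, and neither was called.

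**Figure D3:**
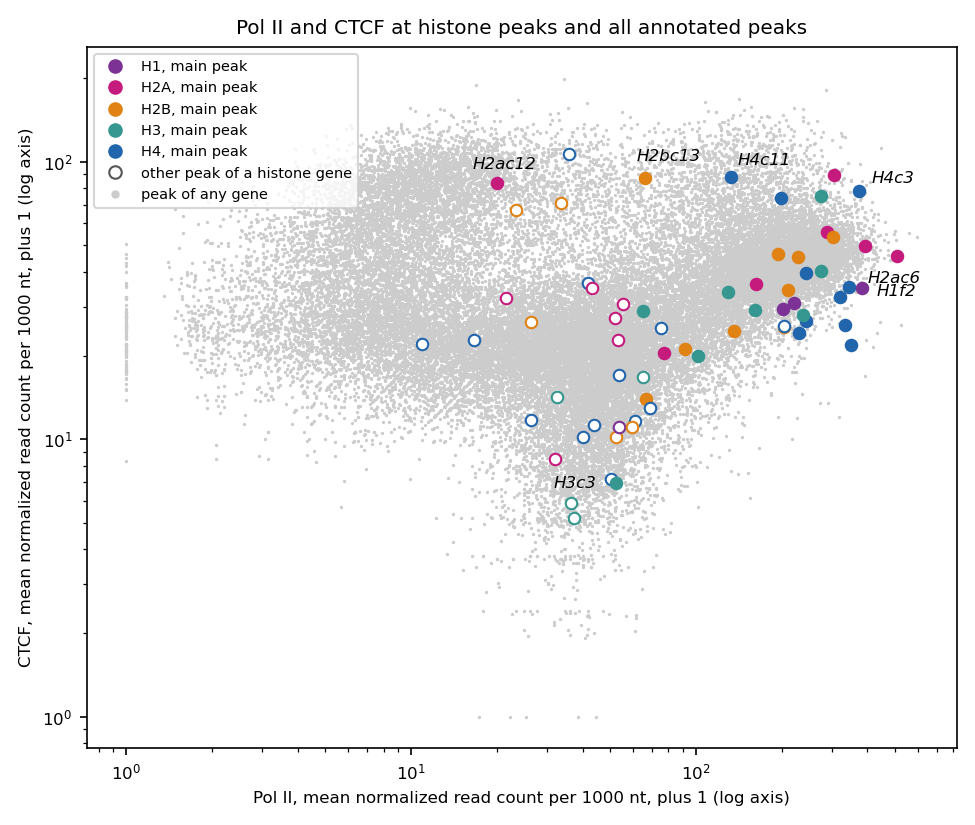
Mean Pol II (x axis) against mean CTCF (y axis) normalized read count per 1000 nt, plus 1, on log axes, for the 66 histone peaks (coloured by family, filled for main peaks) over all annotated peaks (grey). Main peaks lie at the right, with a median of 219 for Pol II, and at mid height for CTCF, with a median of 33.4, and the main peaks of *H2ac12* and *H2bc13* lie higher for CTCF, at 82.6 and 86.5, with 19.1 and 65.0 for Pol II.

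The first comparison asks what loss of *Trdn-as* transcription does at these genes. No member peak passed the test between *Trdn-as* KO and WT for Pol II (0 of the 57 tested, limma, adjusted p below 0.05), where 0.304% of all 52655 peaks tested were called, and 2 members had an unadjusted p below 0.05 (7.7% of all peaks). The median log2 fold change of the members was -0.18, against -0.07 over all peaks, and 15 of 57 were above 0 (42.2% of all peaks). Both *Trdn-as* KO libraries lay below both WT libraries at 24 of 57 members (19.1% of all peaks) and above at 7 (12.9%). The member peaks nearest to a call were minor ones. A 277 nt peak behind *H4c4* held 12 and 26 in WT against 6 and 6, a log2 fold change of -1.42 (SE 0.63, limma adjusted p = 0.58).

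Main peaks gave smaller values with narrower intervals. *H2ac4* held 89 and 77 (WT) and 64 and 49 (*Trdn-as* KO) (log2 fold change -0.56, 95% interval -1.11 to 0.00). *H4c1* held 294 and 282 against 272 and 183 (-0.37, -0.75 to 0.02), and *H3c8* 108 and 122 against 80 and 86 (-0.46, -0.97 to 0.04). These 3 were taken from the peaks at which the libraries did not overlap. On the other side *H4c9* held 281 and 267 (WT) and 293 and 287 (*Trdn-as* KO) (0.08, -0.28 to 0.44). The cardiomyocyte marker *Myh6* fell in the same comparison (-0.35, limma adjusted p = 0.029), and no other cell type marker was called. Of the 8 cardiomyocyte markers 2 lay above 0 (median -0.05). All 6 fibroblast markers lay above 0 (median 0.33, from 0.15 to 0.40), opposite in sign to the median of the histone peaks. The part of these markers in the histone values was not tested. By family the median main peak was at -0.14 in H1, -0.06 in H2A, -0.28 in H2B, -0.25 in H3 and -0.06 in H4. *Trdn-as* KO library 2, the one with few reads in peaks, bore on this: with it as the only *Trdn-as* KO library 5 of 57 members were called lower (*H1f1*, *H2bc3*, *H3c7*, *H4c1* and the far peak of *H4c4*) as were 3.57% of all peaks, and without it none was and the median was -0.02.

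The second comparison asks what loss of METTL3 in cardiomyocytes does. No member passed here either (0 of 57, limma, 1.19% of all peaks called), and 5 had an unadjusted p below 0.05 (15.5% of all peaks). The median log2 fold change was 0.09, against 0.08 over all peaks, and 36 of 57 were above 0 (55% of all peaks). Both *Mettl3* KO libraries lay above both WT libraries at 24 of 57 members (31.2% of all peaks) and below at 10 (19.5%). The main peaks and the minor ones differed in sign at the median, 0.17 over 36 main peaks and -0.27 over the other 21. This split is by Pol II level, and it was not made over all peaks. Other genes taken by their strongest peak had medians of 0.28 (replication-independent histones), 0.30 (histone transcription and 3' end processing) and 0.12 (DNA replication and cell division). Fibroblast markers moved with this genotype: 5 of 6 rose in *Mettl3* KO against WT in Pol II, with a median log2 fold change of 1.11 over the 6 and a summed value of 873 and 923 (WT), 1316 and 943 (*Trdn-as* KO), and 1829 and 1802 (*Mettl3* KO), and 1 of 4 smooth muscle and pericyte markers rose, with none of 5 endothelial, 8 cardiomyocyte or 4 leukocyte markers tested called. Their part in the histone values was not tested.

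Among members whose *Mettl3* KO libraries were both above both WT libraries, 5 main peaks nearest to a call are given. *H2ac8* stood at 309.5 ± 7.78 in *Mettl3* KO and 237 ± 19.8 in WT (SD, n = 2 libraries each), a log2 fold change of 0.39 (SE 0.19, limma adjusted p = 0.31). *H2ac6* followed with 0.32 (95% interval -0.03 to 0.68), *H4c3* with 0.26 (-0.03 to 0.56), *H1f2* with 0.23 (-0.02 to 0.48) and *H2bc7* with 0.40 (-0.06 to 0.85). The first 4 of them, *H2ac8*, *H2ac6*, *H4c3* and *H1f2*, were called higher when the *Trdn-as* KO libraries, or either of them, were left out of the fit, with the same fold changes and adjusted p of 0.020 to 0.046. Of all peaks, 7.74% were called higher with neither of those libraries in the fit, and 7.24% and 7.38% without library 1 and without library 2.

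Downwards, *H3c2* had the smallest adjusted p of the comparison. Its only peak held 39 and 32 (WT), 25 and 20 (*Trdn-as* KO), and 25 and 6 (*Mettl3* KO), with a log2 fold change of -1.43 between *Mettl3* KO and WT (SE 0.46, limma adjusted p = 0.10). The *Mettl3* KO libraries differed from each other by 13.4 (SD), more than the WT libraries with 4.95. The minor peak behind *H1f2*, 2228 to 2642 nt after the start, held 23 and 25 (WT) and 10 and 11 (*Mettl3* KO) (-1.12, SE 0.44, limma adjusted p = 0.20), opposite in sign to the main peak of the same gene. The minor peak of *H2ac25* held 20 and 9 against 7 and 3 (-1.36), and the far upstream peak of *H4c8* 39 and 39 against 27 and 16 (-0.87).

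The third comparison sets *Trdn-as* KO against *Mettl3* KO. No member passed (0 of 57, limma, 1.5% of all peaks called), and 15 had an unadjusted p below 0.05 (17.9% of all peaks). The 3 comparisons share libraries and are not independent. The median log2 fold change was -0.20 over the members and -0.16 over all peaks, and 15 of 57 were above 0 (39.2% of all peaks). Both *Trdn-as* KO libraries lay below both *Mettl3* KO libraries at 32 of 57 members (29.9% of all peaks) and above at 5 (13.9%). Cell type markers moved with this comparison too: 4 of 6 fibroblast markers were called lower in *Trdn-as* KO (median log2 fold change -0.83), as were 1 of 4 smooth muscle and pericyte markers (*Pdgfrb*) and 1 of 8 cardiomyocyte markers (*Myh6*, -0.39). Their part in the histone values was not tested. Among main peaks 34 of 36 had a value below 0, the exceptions being *H2ac12* and *H3c2*. Main peaks were chosen for the most Pol II of their gene. With peaks chosen in that way, 0 of 10 replication-independent histone genes lay above 0. So did 0 of 14 genes of histone transcription and 3' end processing, and 6 of 26 of DNA replication and cell division.

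*H2bc7* was nearest to a call. Its main peak held 120 and 90 (*Trdn-as* KO) and 179 and 176 (*Mettl3* KO), with 139 and 130 in WT between them, a log2 fold change of -0.77 (SE 0.23, limma adjusted p = 0.066). *H2bc12* held 77 and 73 against 125 and 114 (-0.66, 95% interval -1.17 to -0.16), *H4c12* 142 and 100 against 171 and 186 (-0.58, -1.03 to -0.13) and *H2ac4* 64 and 49 against 74 and 114 (-0.70, -1.26 to -0.15). At the minor peaks of *H1f2* and *H2ac25* the order was the other way, 36 and 26 against 10 and 11 (1.46, limma adjusted p = 0.072) and 46 and 10 against 7 and 3 (2.01, adjusted p = 0.085). With *Trdn-as* KO library 2 as the only library of that genotype, 19 of 57 members were called lower, as were 17.6% of all peaks, and without it 0 members were.

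**Figure D4:**
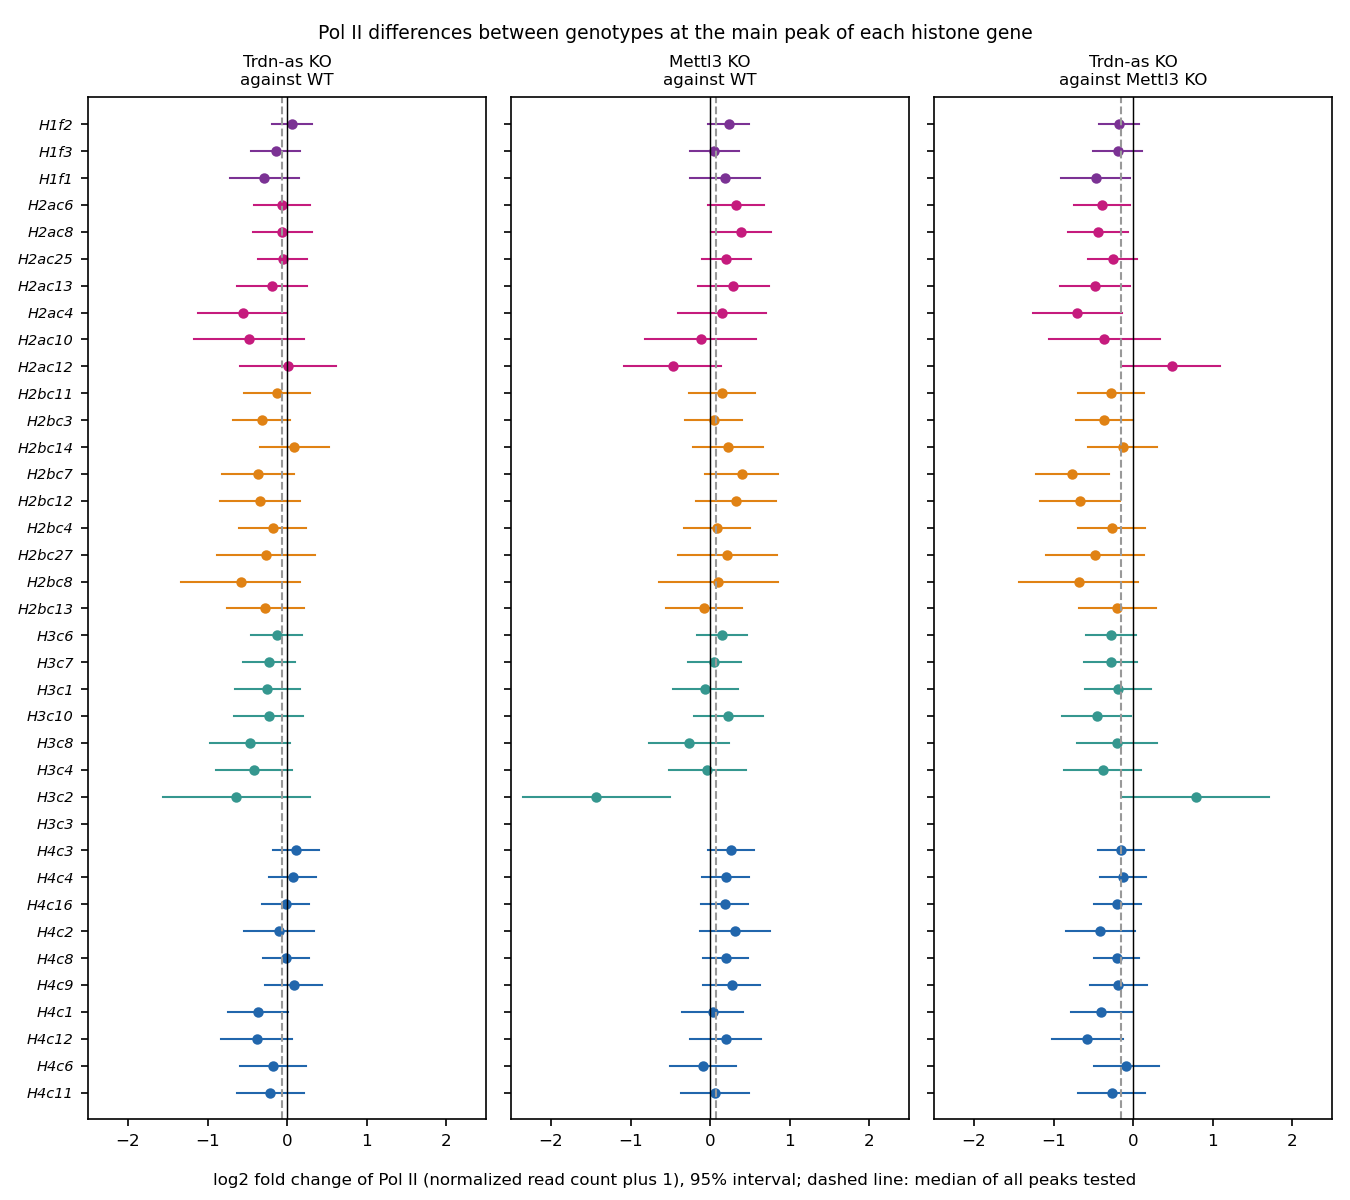
Log2 fold change of Pol II with its 95% interval at the main peak of each histone gene (36 tested, *H3c3* under the filter) in the 3 comparisons, coloured by family, with the median of all peaks tested as a dashed line. Points lie mostly left of 0 in the third panel, 34 of 36, where 39.2% of all peaks and 0 of 10 replication-independent histone genes lay above 0. No gene passed the test in any panel.

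These directions depend on how libraries are scaled. With values rescaled by the median ratio over the peaks tested, the median of all peaks moved from -0.07 to 0.00, from 0.08 to -0.02 and from -0.16 to 0.01 in the 3 comparisons, and the members with a value above 0 went from 15 to 21, from 36 to 28 and from 15 to 22 of 57. With equal totals over all peaks, 30 of 57 members were above 0 between *Trdn-as* KO and *Mettl3* KO. Scaled to the uniquely mapped reads, the median of all peaks was -0.65 for *Trdn-as* KO against WT and the members stood at -0.78. The median of the members moved in the same direction as that of all peaks under each of these scalings.

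**Figure D5:**
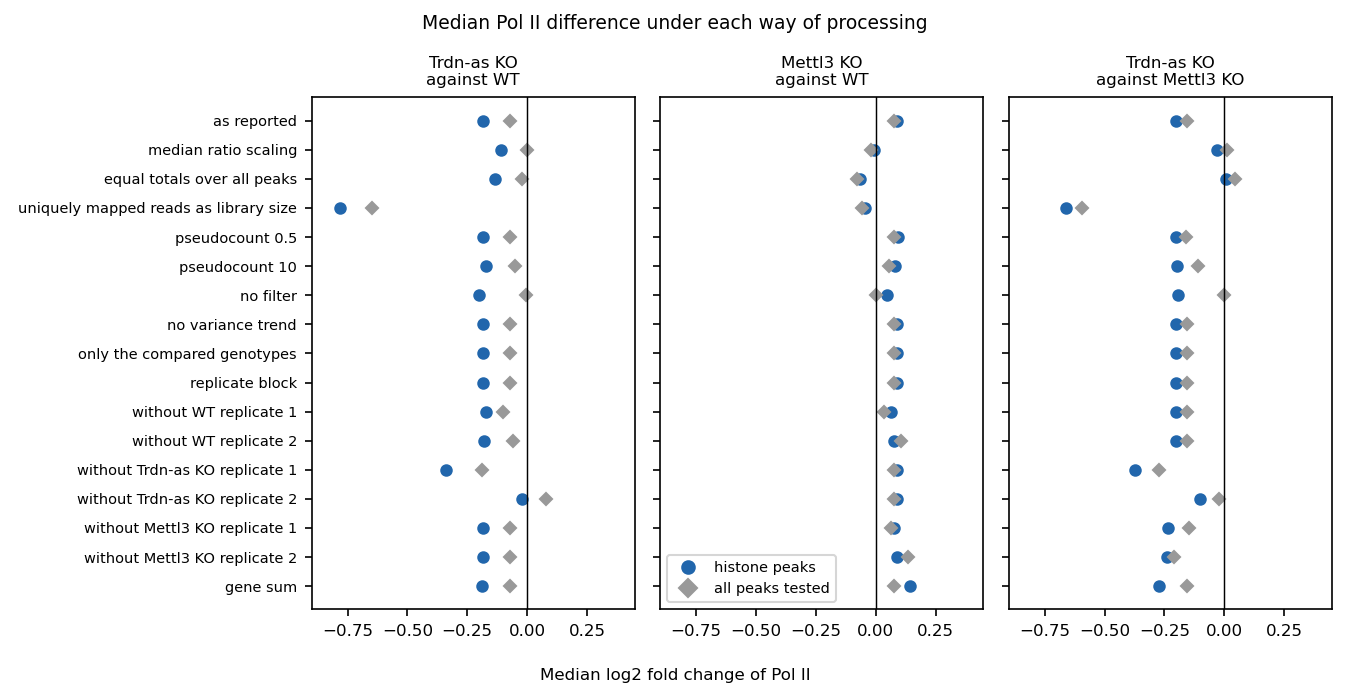
Median log2 fold change of Pol II over the histone peaks (blue circles) and over all peaks tested (grey diamonds) as reported and under each alternative, in the 3 comparisons. The 2 medians move together under the scalings, and in the third panel the histone median runs from -0.66 with uniquely mapped reads to 0.01 with equal totals.

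CTCF gave no call at a member in any of the 3 comparisons (0 of 44 tested each, limma). Of all 60649 peaks tested, 0.587% were called between *Trdn-as* KO and WT, 0.185% between *Mettl3* KO and WT and 1.37% between *Trdn-as* KO and *Mettl3* KO, and 3, 6 and 2 members had an unadjusted p below 0.05 (10.2%, 15.7% and 18.8% of all peaks). Median log2 fold changes were -0.07, -0.17 and 0.09, against 0.04, -0.06 and 0.09 over all peaks, with 16, 8 and 31 of the 44 above 0 (56.9%, 38.9% and 65.2% of all peaks). The pair of *Mettl3* KO values was under the pair of WT values at 19 of 44 members (27.7% of all peaks) and above at 1 (15.8%). In CTCF some cell type markers moved with that comparison too. Of the endothelial markers 0 of 5 were above 0 (median -0.46) and of the fibroblast markers 6 of 6 (median 0.24), none of them called. Of the cardiomyocyte markers 5 of 8 were above 0 (median 0.02), and 1 of the 8, *Myh6*, was called higher (0.67, limma adjusted p = 6.9e-05). Between *Trdn-as* KO and WT none was called, with 0 of 5 endothelial (median -0.30), 6 of 6 fibroblast (median 0.17) and 7 of 8 cardiomyocyte markers (median 0.05) above 0. Between *Trdn-as* KO and *Mettl3* KO *Myh6* fell (-0.50, limma adjusted p = 0.00015) and *Pln*, which codes for phospholamban, rose (0.24, adjusted p = 0.033). Above 0 were 3 of 8 cardiomyocyte (median -0.03), 5 of 5 endothelial (median 0.17) and 2 of 6 fibroblast markers (median -0.06). Their part in the histone values was not tested. *H4c4* had the smallest adjusted p there, with 45 and 41 (WT) and 31 and 33 (*Mettl3* KO) at its start (-0.41, SE 0.14, limma adjusted p = 0.18). *H2bc4* had it in the *Trdn-as* KO comparison, with 39 and 34 (WT) against 22 and 29 (-0.51, SE 0.17, limma adjusted p = 0.30). Of the CTCF-rich peaks, *H2bc13* at 4708 to 6466 nt held 158 ± 5.66 in *Trdn-as* KO and 148.5 ± 4.95 in WT (SD, n = 2 libraries each; 0.09, 95% interval -0.09 to 0.27). The far peak of *H2ac12* stood at 0.16 in the same comparison (-0.00 to 0.33). The peak just behind *H2bc13* held 105.5 ± 3.54 in *Trdn-as* KO and 87 ± 4.24 in *Mettl3* KO (0.28, 0.05 to 0.51, limma adjusted p = 0.19).

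The other histone genes gave a reference for Pol II. Of 12 replication-independent histone genes 10 had a peak, with a median of 252 per 1000 nt, and none was called in any comparison for Pol II (0.304% to 1.5% of all peaks called) or CTCF (0.185% to 1.37%). *H3f3a* had the largest value (mean 1076, 258 per 1000 nt), then *H3f3b* (776.5, 446 per 1000 nt) and *H1f0*, the linker histone of non-dividing cells (513, 283 per 1000 nt). In *Mettl3* KO against WT 9 of the 10 lay above 0 in Pol II (55% of all peaks), with a median of 0.28 (0.08 over all peaks). In *Trdn-as* KO against *Mettl3* KO it was 0 of 10 (39.2% of all peaks), with a median of -0.29 (-0.16), and in *Trdn-as* KO against WT 4 of 10 (42.2%), with a median of -0.02 (-0.07). Replication-dependent members reached the same range of levels: *H2ac6* with 505 per 1000 nt stood above *H3f3b*, though the *H2ac6* peak also covers the start of *H2bc4*.

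Genes of histone transcription and 3' end processing had a median of 164 per 1000 nt over 15 of 19 with a peak. Of the 14 tested for Pol II 0 were called (0.304% to 1.5% of all peaks). The largest values were at *Yy1* (mean 536), *Pou2f1*, which codes for the octamer factor OCT1 (533.5), and *Slbp* (527.5). In Pol II 13 of the 14 lay above 0 between *Mettl3* KO and WT (55% of all peaks), with a median of 0.30 (0.08 over all peaks). *Slbp* stood at 0.45 (limma adjusted p = 0.14) and *Npat* at 0.26 (adjusted p = 0.54). Between *Trdn-as* KO and *Mettl3* KO 0 of 14 lay above 0 (39.2% of all peaks; median -0.29, against -0.16). Between *Trdn-as* KO and WT it was 9 of 14 (42.2%), with a median of 0.01 (-0.07). Genes of DNA replication and cell division had less, a median of 103 per 1000 nt over 26 of 28. For Pol II 0 of 26 were called (0.304% to 1.5% of all peaks). In the 3 comparisons of Pol II, taken in the order of the histone results, 7, 17 and 6 of the 26 lay above 0 (42.2%, 55% and 39.2% of all peaks). The medians were -0.18, 0.12 and -0.28, against -0.07, 0.08 and -0.16 over all peaks. *Pcna*, the replication clamp, was an exception with 376 per 1000 nt, whereas the proliferation marker *Mki67* had 90.9, *Cdk1* 51.3 and *Top2a* 117. The main peaks of the histone genes, at a median of 219 per 1000 nt, thus held more Pol II per length than most genes of that list, of which 4 of 26 were above 219.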

How the data were processed

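ChIP-seq was done on ventricles with an antibody to the B1 subunit of Pol II, with an antibody to CTCF and with IgG. The input libraries were not analysed here. Per the labels and the methods of the study, the authors used Trimmomatic 0.39 for trimming and STAR 2.7.11b for alignment against GRCm39, removed duplicates (Picard 3.1.1) and multi-mapping reads, called peaks with MACS, merged them into union peaks and counted reads with featureCounts. The deposited signal values are read counts per union peak that the authors normalized with DESeq2 1.36.0 and rounded, so they are no longer raw counts. The value of 1 read was estimated from the spacing of low values in each library.

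Values were tested as log2(value + 1) with limma 3.58.1 (R 4.3.3, variance trend) in 1 model per target over the 3 genotypes, keeping a peak when 2 or more of the 6 libraries reached a value of 10. p-values were adjusted over all peaks tested (Benjamini-Hochberg, 0.05, two-sided). The added 1 makes fold changes of low peaks smaller than they are. The fit was tested on simulated data. Levels between peaks were compared per 1000 nt of peak. Library size for the ratio to IgG was the number of uniquely mapped reads given by the study. Stem-loops, 72-nt stretches and promoters were read from RefSeq sequence of GRCm38.p6; no coordinate was carried over to GRCm39.

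The histone genes and all gene lists were chosen with earlier results of these data known. Peaks named with values were the highest and lowest of each family per length, those nearest to a call whose libraries did not overlap, and peaks of genes with several peaks. Other peaks were named to describe position. Alternatives were other scalings, pseudocounts of 0.5 and 10, no filter, no variance trend, only the compared genotypes, sums per gene, the replicate number as a block, and leaving out each library.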

Additional observations from a re-analysis of the deposited data

How the results depend on the processing

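CTCF gave no member call under any of 48 alternatives, and Pol II none under 38 of 48. For *Mettl3* KO against WT in Pol II, 1 member (*H3c2*) was called lower with median ratio scaling and 1 with equal totals (2.09% and 2.63% of all peaks), and 4 higher with only the compared genotypes (7.74%). For *Trdn-as* KO against *Mettl3* KO, 1 was called higher (1.3% of all peaks) and 1 lower (1.46%) with median ratio scaling, 1 higher with equal totals (1.6%), and 1 higher (0.524%) and 1 lower (1.93%) with a pseudocount of 10, which makes 2, 1 and 2. Leaving out 1 library gave 0 to 5 calls for *Trdn-as* KO against WT, 0 to 4 for *Mettl3* KO against WT and 0 to 19 for *Trdn-as* KO against *Mettl3* KO. The 4 were higher (7.24% and 7.38% of all peaks without *Trdn-as* KO library 1 or 2). The 5 and the 19 were lower (3.57% and 17.6% of all peaks) and arose without *Trdn-as* KO library 1, where library 2 stands alone and is assumed to vary like the other groups. The cause was not tested.

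The median log2 fold change of Pol II over the members was -0.11 (median ratio) and -0.78 (uniquely mapped reads) for *Trdn-as* KO against WT. It was -0.00633 (median ratio), -0.0637 (equal totals) and -0.0449 (uniquely mapped reads) for *Mettl3* KO against WT. For *Trdn-as* KO against *Mettl3* KO it was -0.0297, 0.00713 and -0.661 in that order, and -0.27 with sums per gene. For CTCF in that comparison it was -0.0105, -0.00813 and 0.00225. Without 1 library it ran from -0.339 to -0.0208 (Pol II, *Trdn-as* KO against WT), from -0.373 to -0.0994 (Pol II, *Trdn-as* KO against *Mettl3* KO), from -0.163 to -0.00874 (CTCF, *Trdn-as* KO against WT) and from -0.0116 to 0.192 (CTCF, *Trdn-as* KO against *Mettl3* KO). With uniquely mapped reads, 3 fold changes of Pol II between *Trdn-as* KO and WT turned negative, -0.24 at the minor peak of *H1f2*, -0.52 at *H4c9* and -0.43 at the peak behind *H2bc11*. Of 780 alternatives of 52 named fold changes, 753 kept their direction and side of the threshold and 24 passed it anew.

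The labels give replicate numbers that nothing ties to an animal or batch. Deviations of same-numbered libraries correlated at -0.00453, -0.00023 and -0.00957 in Pol II and at -0.238, 0.0059 and -0.0095 in CTCF, so pairing was not established. With the replicate number as a block 0 members were called in each of the 6 comparisons, and the median of Pol II stayed at -0.18, 0.09 and -0.20. With 2 libraries a group, and 1 read worth up to 2.04 in Pol II, values at low peaks rest on few reads, and how small a difference could be found was not tested.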
